A study of Homo sapiens with 17 samples.

Results

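The epidermal growth factor receptor, EGFR, and 7 growth factors of its ligand family were examined: EREG, AREG, HBEGF, TGFA, BTC, EPGN and NRG1. These 8 genes were taken by name and matched by Ensembl identifier to 8 of the 62754 gene rows of each library. Of the 8, EGFR, EREG, AREG, HBEGF and NRG1 had enough reads to be among the 19473 genes tested. TGFA, BTC and EPGN were too low to be tested and are given as counts.

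The libraries came from IMR90 ER:RAS cells, a human lung fibroblast line infected with a retrovirus that carries an activated RAS (RASG12V) fused to the oestrogen receptor. The fusion is switched on by 4-hydroxytamoxifen (4OHT), which drives the cells into oncogene-induced senescence. Cells were transfected with siRNA a day before 4OHT or its vehicle DMSO and collected at day 7. There were 5 libraries of DMSO with a non-targeting siRNA (DMSO siNT), 6 of 4OHT with a non-targeting siRNA (4OHT siNT) and 6 of 4OHT with an siRNA against SMARCA4 (4OHT siSMARCA4). SMARCA4 (BRG1) is a catalytic subunit of SWI/SNF, which uses ATP to move nucleosomes. All 3 groups carried the ER:RAS transgene, and no library combined DMSO with siSMARCA4, so an effect of the knockdown in growing cells was not measured. The labels do not say whether libraries came from separate cultures, so p-values measure the spread between these libraries, which may be technical.

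EGFR is a receptor tyrosine kinase at the cell surface. Its ligands are made as transmembrane precursors that metalloproteases such as ADAM17 cut free, and a bound receptor signals through RAS, RAF and ERK. Epiregulin (EREG), betacellulin (BTC) and heparin-binding EGF-like growth factor (HBEGF) bind EGFR and ERBB4, amphiregulin (AREG), transforming growth factor alpha (TGFA) and epigen (EPGN) bind EGFR, and neuregulin 1 (NRG1) binds ERBB3 and ERBB4. Amphiregulin and epiregulin are known secreted products of senescent fibroblasts.

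Library totals ran from 39.1 M to 69.0 M counts, and the 5 tested genes rested on at least 901 counts in every group. SMARCA4 itself was at 253 to 286 CPM (counts scaled to the TMM-adjusted size of the library) in 4OHT siNT and at 68.4 to 127 CPM in 4OHT siSMARCA4, with a log2 fold change of -1.61. Fibroblast markers were present in every library, and their summed level moved with the groups, at 22335 to 26759 CPM in DMSO siNT, 13443 to 17535 CPM in 4OHT siNT and 7558 to 10888 CPM in 4OHT siSMARCA4. Of these 8 markers, 6 were called lower with 4OHT (27.4% of all genes tested) and 6 with the knockdown (13.8%). VIM was at 5985, 5967 and 5720 CPM in the 3 groups and FAP at 73.9, 106 and 97.1 CPM. In CPM the fall of the sum lay mostly in the abundant collagen genes COL1A1 and COL1A2. Markers other than collagens also fell, with THY1 at 705, 359 and 161 CPM, PDGFRB at 189, 117 and 48.2 CPM and LUM at 66.3, 20.9 and 12.2 CPM. The markers' part in the results was not tested. Epithelial markers summed to 4.45 to 9.63 CPM in DMSO siNT, 2.22 to 3.09 CPM in 4OHT siNT and 0.765 to 2.40 CPM in 4OHT siSMARCA4, and endothelial markers to 0.798 to 1.83, 3.52 to 5.54 and 1.73 to 4.25 CPM, so both also moved with the groups, and their part was not tested either. Leukocyte markers summed to at most 0.347 CPM, and KRT5 had 0 counts in all 17 libraries. In bulk samples, fewer cells of a type and less RNA per cell cannot be told apart. Each label carried a number, 2 or 4, which for the knockdown named the siRNA (siSMARCA4_2 or siSMARCA4_4), and a tag, V or VM, whose meaning is not given. With siNT the labels do not say what the number names. The tag was VM in every library of 4OHT siNT, in 3 of 6 with siSMARCA4 and in 3 of 5 with DMSO, so values within VM are given for the 5 genes where they changed a call. No comparison of 4OHT siNT could be made within V. In 4OHT siSMARCA4, SMARCA4 was at 82.7 to 127 CPM in V libraries and at 68.4 to 78.3 CPM in VM libraries. More SMARCA4 transcript thus remained in V, and its part in differences by tag was not tested. In what follows a library is named by number, replicate and tag, as in 4-3VM.

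With 4OHT, transcripts of the receptor and of the 4 ligands tested rose together, by very different amounts. AREG rose most of the 5, to a mean 92.3 times that of DMSO siNT, and EREG and NRG1 rose more than 10-fold. EGFR rose 1.81-fold and HBEGF 1.46-fold. All 5 of the 5 genes tested were called higher in 4OHT siNT than in DMSO siNT, and in 4 of them the libraries of the 2 groups did not overlap. The call of HBEGF was lost in 7 of 30 alternative fits, among them that within VM libraries (log2 fold change 0.28, edgeR adjusted p 0.281). Over all genes tested, 27.0% were called higher, 27.4% were called lower and 39.6% had libraries without overlap. The median log2 fold change was 3.44 over the 5 genes and 0.00 over all genes tested.

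The receptor was well expressed before 4OHT and rose moderately with it. The EGFR gene (ENSG00000146648, chr7:55019017-55211628, plus strand, GRCh38) was at 216, 219.9, 190.1, 184 and 109.8 CPM in the 5 DMSO siNT libraries. It was at 313 to 395 CPM in 4OHT siNT, with a median of 317, and at 236 to 434 CPM in 4OHT siSMARCA4, with a median of 268. The lowest DMSO library was 4-3VM, and every 4OHT library of either siRNA lay above every DMSO library, whereas the 4OHT groups overlapped. The means were 184 ± 44.3 (SD, n = 5), 332 ± 31.5 (n = 6) and 300.05 ± 77.5 CPM (n = 6). The log2 fold change was 0.85 with 4OHT (SE 0.17, edgeR adjusted p 0.00032). With the knockdown it was -0.15 (SE 0.16, edgeR adjusted p 0.552), with a 95% interval of -0.48 to 0.19. This value moved with the libraries used, to -0.38 within VM (edgeR adjusted p 0.0658), -0.37 with number 2 only, where it was called (edgeR adjusted p 0.0342), and 0.12 with number 4 only (edgeR adjusted p 0.773). Within the siSMARCA4 group, 4-2V at 434 and 4-3V at 350.5 CPM were the highest libraries.

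Among the ligands, the genes of EPGN, EREG, AREG and BTC lie in that order on the long arm of chromosome 4 and HBEGF lies on chromosome 5. The DNA just before the starts of EREG, AREG and HBEGF is shown because EREG and AREG, whose starts are 79.99 kb apart, rose most with 4OHT of these 3 genes, whereas HBEGF rose least. The 150 bases that end at the base before the transcription start were read from RefSeq on GRCh38.p14, for EREG at chr4:74364995-74365144 (plus strand), for AREG at chr4:74444986-74445135 (plus strand) and for HBEGF at chr5:140346604-140346753 (minus strand), and are written 5′ to 3′ along the gene's strand. Capitals mark matches on either strand to the motifs searched.
EREG: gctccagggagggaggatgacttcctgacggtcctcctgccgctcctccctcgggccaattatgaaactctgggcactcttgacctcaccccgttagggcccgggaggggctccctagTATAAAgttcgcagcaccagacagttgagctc
AREG: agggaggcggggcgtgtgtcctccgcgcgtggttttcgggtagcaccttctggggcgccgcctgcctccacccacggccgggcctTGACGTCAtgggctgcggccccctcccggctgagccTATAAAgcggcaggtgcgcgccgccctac
HBEGF: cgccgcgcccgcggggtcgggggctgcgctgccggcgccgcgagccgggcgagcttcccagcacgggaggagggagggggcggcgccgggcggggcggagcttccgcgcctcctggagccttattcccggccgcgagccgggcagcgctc
The motifs searched over 300 bases, from 250 before the start to 50 after it, were the AP-1 site TGANTCA, the cyclic AMP response element TGACGTCA, the NF-kB site GGGNNTTCC, the C/EBP site TTGCNNAA, the TATA box TATAAA and the CArG box. EREG held a TATA box 32 to 27 bases before its start. AREG held a TATA box 29 to 24 bases before its start and a cyclic AMP response element 65 to 58 bases before it. EPGN also held a TATA box, 29 to 24 bases before its start. At EGFR the main start held none of the motifs, while a second start at chr7:55109839 held 2 AP-1 sites, 2 TATA boxes and 1 C/EBP site. HBEGF, TGFA and BTC held none of the 6 motifs, which says only that these letters were not in these windows. NRG1 was not searched, and a part of the motifs in the changes of level was not tested. Of 34794 promoter windows of the same length, 11.6% held the TATA box, 1.84% the cyclic AMP response element, 7.73% the AP-1 site, 6.55% the NF-kB site, 10.5% the C/EBP site and 1.3% the CArG box.

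Epiregulin transcript was low in every DMSO library and high in every 4OHT library. EREG (ENSG00000124882, chr4:74365145-74388749, plus strand) was at 18.2, 24.2, 20.5, 21.0 and 20.8 CPM in DMSO siNT. It was at 219.8 to 333 CPM in 4OHT siNT (median 265) and at 321 to 378 CPM in 4OHT siSMARCA4 (median 344). The lowest 4OHT library was 9.07-fold above the highest DMSO library, while the top of the siNT range lay inside that of siSMARCA4. Means were 21.0 ± 2.17 (SD, n = 5), 274 ± 42.6 (n = 6) and 345 ± 20.5 CPM (n = 6). The log2 fold change was 3.71 with 4OHT (SE 0.11, edgeR adjusted p 2.21e-14) and 0.33 with the knockdown (SE 0.09, edgeR adjusted p 0.0155). Within VM libraries the knockdown value was 0.28 and missed the threshold (edgeR adjusted p 0.088), as it did with number 2 only (0.18, edgeR adjusted p 0.254).

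Amphiregulin transcript was under 5 CPM in every DMSO siNT library and had the largest rise of the 5 with 4OHT. AREG (ENSG00000109321, chr4:74445136-74455005, plus strand) was at 2.04, 1.79, 4.61, 2.56 and 4.97 CPM in DMSO siNT, and both V libraries were the lowest. In 4OHT siNT it was at 243 to 322 CPM with a median of 314, and in 4OHT siSMARCA4 at 189 to 365 CPM with a median of 222. The DMSO and 4OHT libraries did not overlap. Of the siSMARCA4 libraries, 4 lay below every siNT library and 1, 2-3V, lay above every one. Means were 3.19 ± 1.49 (SD, n = 5), 295 ± 35.9 (n = 6) and 243 ± 65.0 CPM (n = 6). The log2 fold change with 4OHT was 6.52 (SE 0.29, edgeR adjusted p 1.56e-12), which ranked 57 of 19473 from the highest. With the knockdown it was -0.28 (SE 0.20, edgeR adjusted p 0.346), with a 95% interval of -0.71 to 0.15. Within VM libraries, 3 siSMARCA4 libraries at 189 to 227 CPM lay below all 6 siNT libraries, and there the log2 fold change was -0.51 (edgeR adjusted p 0.0343). The 3 V libraries of siSMARCA4 were at 217 to 365 CPM and had no siNT counterpart with the same tag.

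HBEGF had a small rise with 4OHT and a further rise with the knockdown. HBEGF (ENSG00000113070, chr5:140332843-140346603, minus strand) was at 23.7, 31.6, 46.4, 37.9 and 50.4 CPM in DMSO siNT, at 47.7 to 64.8 CPM in 4OHT siNT (median 53.3) and at 63.3 to 132 CPM in 4OHT siSMARCA4 (median 88.8). The highest DMSO library exceeded the lowest siNT library, and only the 2 lowest siSMARCA4 libraries, 2-1VM and 2-3VM, fell inside the siNT range. Means were 38.0 ± 10.8 (SD, n = 5), 55.4 ± 6.39 (n = 6) and 91.7 ± 26.8 CPM (n = 6). The log2 fold change was 0.54 with 4OHT (SE 0.19, edgeR adjusted p 0.0241). That call was lost without DMSO siNT 2-1V (0.39, edgeR adjusted p 0.0893), 2-2V (0.46, 0.0794) or 4-2VM (0.52, 0.0513), without 4OHT siNT 4-2VM (0.50, 0.0506), and within VM libraries (0.28, 0.281). In DMSO, V libraries were at 23.7 and 31.6 CPM and VM libraries at 37.9 to 50.4 CPM. The knockdown effect on HBEGF, also in log2 units, was 0.73 (SE 0.18, edgeR adjusted p 0.00843), and 0.65 within VM libraries (edgeR adjusted p 0.0251). With the libraries numbered 2 only it was 0.55 and missed the threshold (edgeR adjusted p 0.0828).

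NRG1, whose product signals through ERBB3 and ERBB4, rose almost as much as EREG. NRG1 (ENSG00000157168, chr8:31639222-32855666, plus strand, promoter not searched for motifs) was at 33.6, 34.9, 46.1, 32.8 and 30.1 CPM in DMSO siNT. It was at 257 to 575 CPM in 4OHT siNT (median 368) and at 443 to 789 CPM in 4OHT siSMARCA4 (median 536). Every 4OHT library was above every DMSO library, and 2 siNT libraries, 4-2VM and 4-3VM, lay above the lowest siSMARCA4 library. Means were 35.5 ± 6.18 (SD, n = 5), 385 ± 114 (n = 6) and 557 ± 130.2 CPM (n = 6). The log2 fold change was 3.44 with 4OHT (SE 0.21, edgeR adjusted p 1.22e-10) and 0.53 with the knockdown (SE 0.18, edgeR adjusted p 0.036). Of the 3 knockdown calls among the 5 genes, that of NRG1 was lost in the most alternatives, 10 of 30. It was lost within VM libraries (0.27, edgeR adjusted p 0.35), where 3 siSMARCA4 libraries were at 443 to 490 CPM, while the 3 V libraries were at 581 to 789 CPM. It was also lost when 1 library was left out, for 4OHT siNT 2-1VM (0.50, edgeR adjusted p 0.0738), 2-2VM (0.47, 0.0741), 2-3VM (0.45, 0.0652) and 4-1VM (0.54, 0.0586), and for 4OHT siSMARCA4 2-3V (0.51, 0.0653), 4-2V (0.41, 0.084) and 4-3V (0.52, 0.0536). The V libraries of siSMARCA4, highest in NRG1, also kept more SMARCA4 transcript (82.7 to 127 CPM) than the VM libraries (68.4 to 78.3 CPM).

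**Figure D1:**
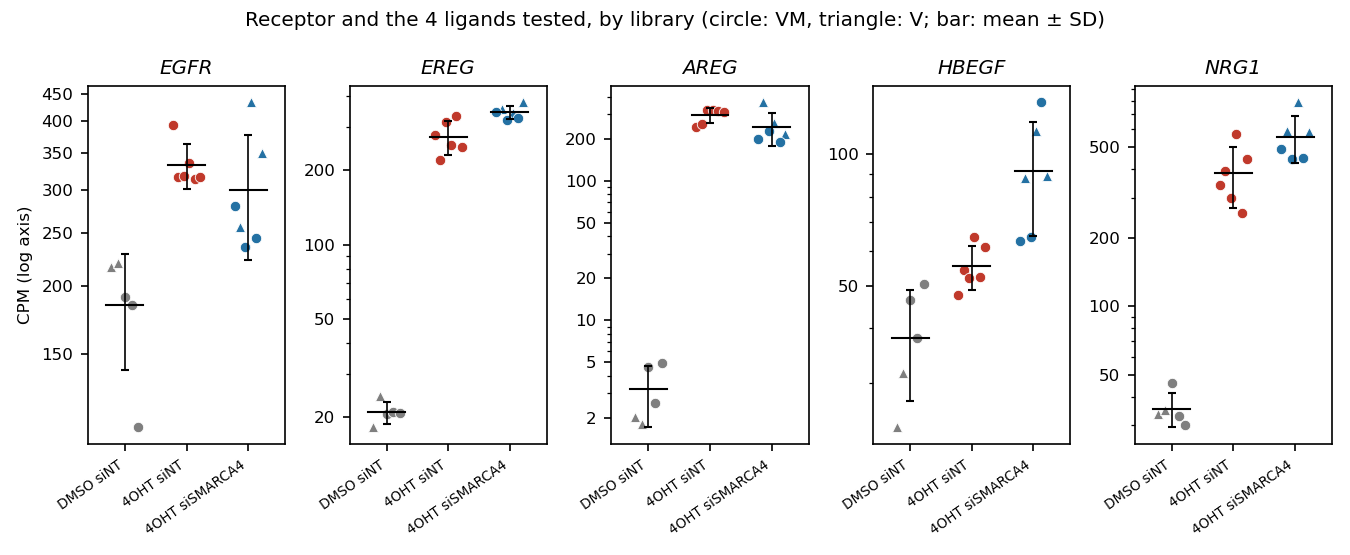
Level of EGFR, EREG, AREG, HBEGF and NRG1 in each library, as CPM on a log axis that differs between panels, with triangles for V and circles for VM libraries, and a bar for the mean ± SD of each group (5 libraries of DMSO siNT and 6 of either 4OHT group). The 4OHT libraries lie above DMSO for every gene except HBEGF, whose siNT range (47.7 to 64.8 CPM) overlaps DMSO.

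The remaining ligands were at the edge of detection. TGFA had 8 counts over the 5 DMSO siNT libraries, 28 over the 6 of 4OHT siNT and 7 over the 6 of 4OHT siSMARCA4. BTC had 9, 7 and 2 counts, and EPGN 14, 19 and 19. The ratio of the TGFA counts, scaled to depth, was 3.23 for 4OHT siNT against DMSO siNT, with an exact 95% interval of 1.43 to 8.19, and 0.231 for the knockdown, with 0.0851 to 0.541. These intervals cover counting error only. In 4OHT siNT, 25 of the 28 TGFA counts came from the 3 libraries numbered 2, and the spread between libraries was not tested. For BTC and EPGN the intervals of these 2 comparisons contained 1, so neither change was detectable at this depth. Between 4OHT siSMARCA4 and DMSO siNT the ratio of BTC, from 2 and 9 counts, was 0.189 with an interval of 0.0199 to 0.914, and the intervals of TGFA and EPGN contained 1. The start of EPGN lies 56.68 kb before that of EREG and the start of BTC 429 kb after it.

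Levels of different genes were set side by side per kilobase of the canonical transcript. Such values depend on which transcript forms were present, which was not measured. This matters most for NRG1, with 35 annotated transcripts and the longest canonical one of the ligands (11983 bases). Shorter forms of it would mean a higher level per kb than given here. In DMSO siNT the order was EGFR at 18.6 ± 4.47, HBEGF at 16.1 ± 4.60, EREG at 4.54 ± 0.47, NRG1 at 2.96 ± 0.516 and AREG at 2.59 ± 1.21 CPM per kb (SD, n = 5). EGFR and HBEGF lay within their SDs of each other, and so did NRG1 and AREG, whose order was the reverse per kb of merged exons (1.66 and 1.95). In 4OHT siNT the order was AREG at 239 ± 29.1, EREG at 59.4 ± 9.24, EGFR at 33.6 ± 3.18, NRG1 at 32.2 ± 9.51 and HBEGF at 23.5 ± 2.71 (n = 6), and EGFR and NRG1, and NRG1 and HBEGF, lay within an SD of each other. In 4OHT siSMARCA4 it was AREG at 197 ± 52.6, EREG at 74.7 ± 4.43, NRG1 at 46.5 ± 10.9, HBEGF at 38.9 ± 11.4 and EGFR at 30.3 ± 7.83 (n = 6), and the last 3 were each within their SDs of the next. Per kb of merged exons NRG1 was below HBEGF in 4OHT siNT (18.0 and 18.5) and in 4OHT siSMARCA4 (26.1 and 30.7).

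The make-up of the ligand transcripts differed between the groups. HBEGF made up 60.7 ± 4.48% of the summed level per kb of the 7 ligands in DMSO siNT, 6.66 ± 0.634% in 4OHT siNT and 11.04 ± 3.55% in 4OHT siSMARCA4. AREG made up 9.51 ± 2.55%, 67.4 ± 1.84% and 54.6 ± 5.77%. EREG took 18.0 ± 4.08%, 16.9 ± 2.48% and 21.3 ± 3.07%, and NRG1 11.7 ± 2.72%, 9.11 ± 2.46% and 13.1 ± 2.11%. The sum was 26.2 ± 5.93 CPM per kb in DMSO siNT, 354 ± 36.4 in 4OHT siNT and 357 ± 60.6 in 4OHT siSMARCA4. The mean totals of both 4OHT groups differed by less than their SDs, while the mean share of AREG was smaller and those of HBEGF, EREG and NRG1 were larger with the knockdown. In AREG the siSMARCA4 shares, 48.2 to 64.42%, and the siNT shares, 64.36 to 69.2%, overlapped only at their ends. These shares are given as a description, with no test, and they rest on the canonical lengths, so that of NRG1 may be too low.

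**Figure D2:**
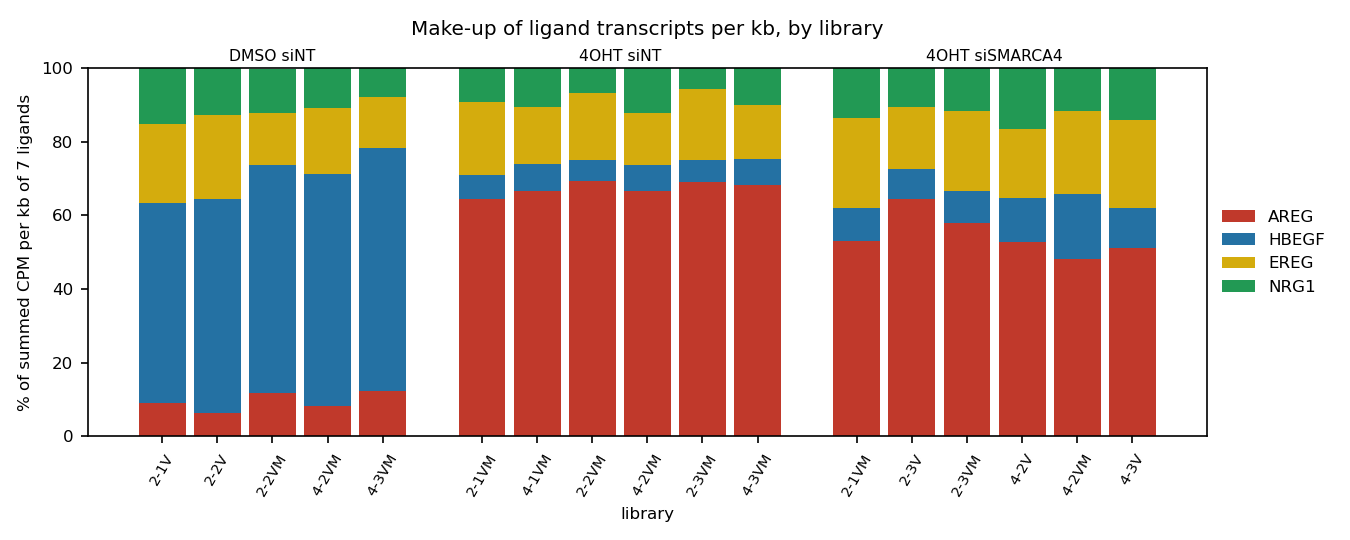
Share of AREG, HBEGF, EREG and NRG1 in the summed level per kb of the 7 ligands (y axis, %), with 1 bar per library grouped as DMSO siNT, 4OHT siNT and 4OHT siSMARCA4. HBEGF takes most of each DMSO bar (54.4 to 65.9%) and AREG most of each 4OHT siNT bar (64.4 to 69.2%), while TGFA, BTC and EPGN are too small to be seen and are not drawn.

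The second comparison, between both 4OHT groups, addressed which transcripts changed with the knockdown of SMARCA4 in cells given 4OHT. With all libraries used, HBEGF, NRG1 and EREG were called higher. That made 3 of 5 genes tested that rose and 0 that fell, against 10.4% called higher and 13.8% called lower over all genes tested. The genes called changed with the libraries used. Within VM libraries HBEGF was called higher and AREG lower (-0.51, edgeR adjusted p 0.0343), while EREG and NRG1 were not called. With number 2 only, EREG and HBEGF were not called and EGFR was called lower. With number 4 only, NRG1 was not called. Over all libraries, none of the 5 was free of overlap, against 12% of all genes tested. By the ratio of group means the 3 rises were between 1.26-fold and 1.65-fold. For EREG and NRG1 that was less than the rise with 4OHT (13.1-fold and 10.9-fold), and for HBEGF the values were 1.65-fold with the knockdown and 1.46-fold with 4OHT. With all libraries used AREG and EGFR were not called, at 0.823 and 0.903 times the siNT mean.

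Set against growing cells, the 4OHT siSMARCA4 libraries kept all 5 genes high. All 5 of 5 were called higher and were without overlap, against 26.5% called higher, 28.6% called lower and 36.3% without overlap over all genes tested. The log2 fold changes were 6.24 for AREG (SE 0.28), 4.04 for EREG (SE 0.11), 3.97 for NRG1 (SE 0.22), 1.27 for HBEGF (SE 0.20) and 0.71 for EGFR (SE 0.17). The largest of their edgeR adjusted p was 0.00166, for EGFR. This comparison and the one of 4OHT siNT share the DMSO libraries, so the values stand side by side and were not correlated.

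**Figure D3:**
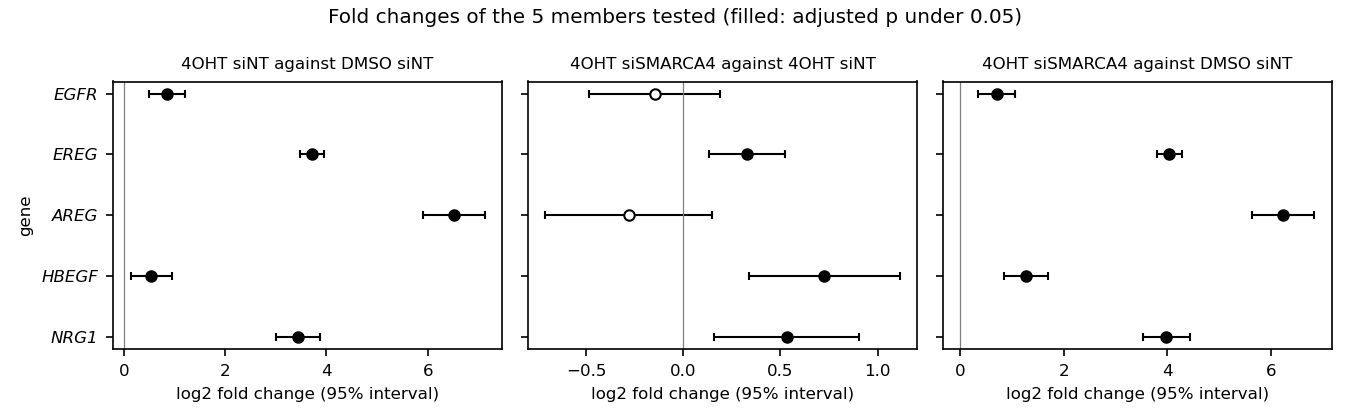
Log2 fold change (x axis) with its 95% interval for the 5 tested genes in 4OHT siNT against DMSO siNT (left), 4OHT siSMARCA4 against 4OHT siNT (middle) and 4OHT siSMARCA4 against DMSO siNT (right), on axes of different range, with filled points for an edgeR adjusted p under 0.05. With the knockdown the intervals of EREG, HBEGF and NRG1 lie above 0, and those of EGFR (-0.48 to 0.19) and AREG (-0.71 to 0.15) cross it.

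Libraries numbered 2 and 4 were compared by an interaction term, each siSMARCA4 siRNA against the siNT libraries of the same number. For the knockdown effect 0 of 5 genes were called, against 1.06% of all genes tested, and for the effect of 4OHT with siNT 0 of 5 against 2.1%. In the knockdown term 1 of the 5 genes, EREG, had an unadjusted edgeR p under 0.05, and its rise was 0.14 with siSMARCA4_2 and 0.54 with siSMARCA4_4 (difference -0.40, SE 0.15, edgeR adjusted p 0.204). Mean EREG was close with both siRNAs, at 340 CPM with siSMARCA4_2 and 349 CPM with siSMARCA4_4. In 4OHT siNT it was 308 CPM with number 2 and 240 CPM with number 4, so the difference lay mostly in the siNT libraries. EGFR was -0.41 with siSMARCA4_2 and 0.09 with siSMARCA4_4 (difference -0.50, 95% interval -1.06 to 0.07, edgeR adjusted p 0.389). HBEGF was 0.51 and 0.89, NRG1 0.76 and 0.37, and AREG -0.16 and -0.42. In the 4OHT term, EREG and NRG1 had an unadjusted p under 0.05, and the NRG1 rise was smaller in the libraries numbered 2 by 0.93 (SE 0.30, edgeR adjusted p 0.0762). NRG1 in 4OHT siNT was at 257 to 343 CPM with number 2 and at 393 to 575 CPM with number 4, and these 3 and 3 libraries did not overlap. Nor did those of EREG (278 to 333 and 220 to 253 CPM) and HBEGF (47.7 to 52.3 and 54.3 to 64.8 CPM), while those of AREG and EGFR overlapped. In 4OHT siSMARCA4, HBEGF was also without overlap by number (63.3 to 88.4 and 89.2 to 132 CPM), and the others overlapped. The share of all genes split in this way was not measured.

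The neighbourhood of EREG and AREG on 4q13.3 was examined because these ligand genes share it with the chemokine genes of the CXCL family. Within 500 kb of the block from EPGN to BTC there were 15 coding genes, of which 9 were tested, EREG and AREG among them. All 9 were called higher with 4OHT, where 27.0% of all genes tested were, including CXCL1 (8.92, SE 0.48), CXCL5 (8.77, SE 0.36), CXCL3 (8.21, SE 0.38), CXCL6 (5.97, SE 0.53) and CXCL2 (4.85, SE 0.35), all neutrophil-attracting chemokines. With number 4 only, 2 of the 9 missed the threshold, PARM1 (0.50 in place of 1.52, edgeR adjusted p 0.227) and MTHFD2L (0.62 in place of 1.06, edgeR adjusted p 0.0528). With the knockdown 4 of the 9 were called higher and 1 lower, against 10.4% and 13.8% of all genes tested. CXCL2 rose by 1.47 (SE 0.26) and CXCL5 by 1.06 (SE 0.23), and CXCL3 by 0.76 (SE 0.23, edgeR adjusted p 0.0244), whereas EREG rose by 0.33 and AREG was at -0.28. The CXCL3 call was lost within VM libraries (0.20, edgeR adjusted p 0.449), with the tag as covariate (0.17, 0.503) and without 4OHT siNT 4-1VM (0.71, 0.0556), 4OHT siSMARCA4 2-3V (0.58, 0.0723) or 4-2V (0.65, 0.0512). PARM1, whose start lies 567.95 kb beyond the start of EREG, went the other way, at 4.82 ± 2.13 CPM in 4OHT siNT and 0.716 ± 0.302 CPM in 4OHT siSMARCA4 (SD, n = 6 each), and in log2 units the difference was -2.73 (SE 0.38, edgeR adjusted p 9.01e-05).

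**Figure D4:**
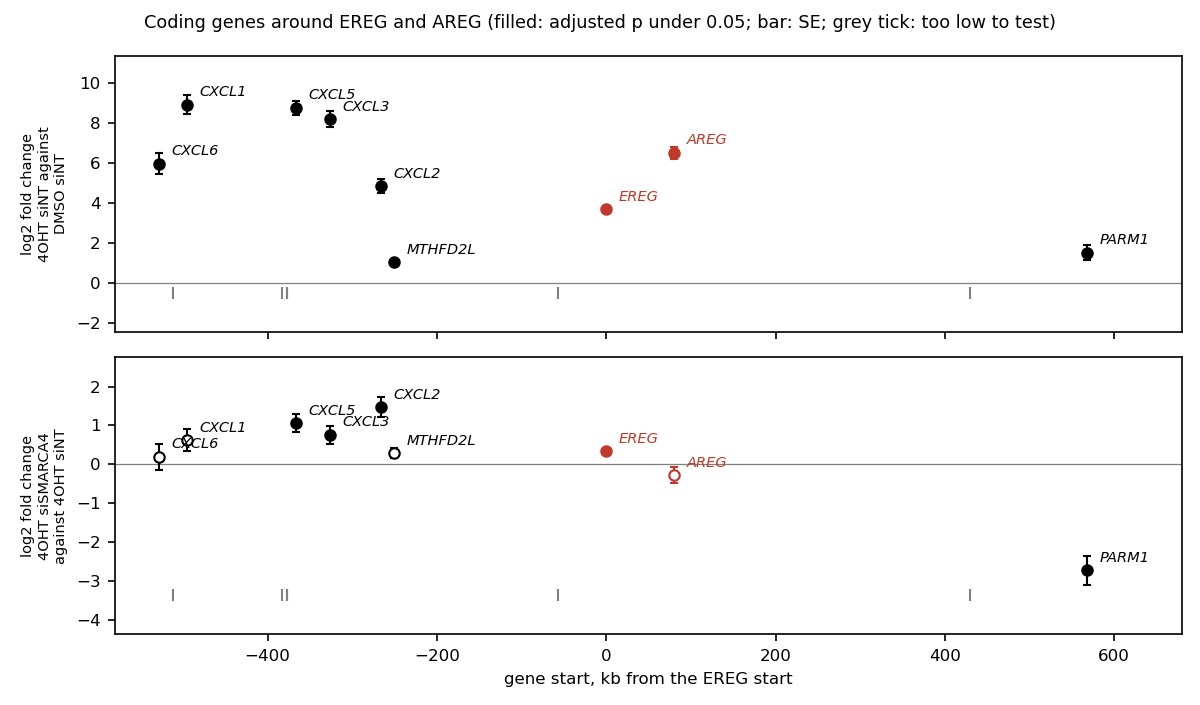
Log2 fold change (y axis, bar for SE) of the 9 tested coding genes around EREG and AREG by distance of the gene start from that of EREG (x axis, kb), for 4OHT siNT against DMSO siNT (top) and 4OHT siSMARCA4 against 4OHT siNT (bottom), with filled points for an edgeR adjusted p under 0.05 and grey ticks for genes too low to test. All 9 points are above 0 with 4OHT, and with the knockdown they run from 1.47 at CXCL2 to -2.73 at PARM1.

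A second measure came from repeat copies that lie wholly inside the introns of these genes, since the tables count each repeat locus on its own. Repeats on either strand were taken, so in these stranded libraries part of the counts may be of RNA antisense to the gene. These loci touch no annotated exon. Pairs that align to several places were shared between features, so the counts are estimates and part of them may come from copies elsewhere. This measure and its tests were added after the gene values had been seen, and group means were compared by exact permutation of the libraries (2-sided), with Benjamini-Hochberg adjustment over 15 such tests. With 4OHT the intronic repeat counts rose for AREG, from 0.16 ± 0.132 to 1.73 ± 0.489 CPM, for EREG, from 0.153 ± 0.127 to 1.17 ± 0.164 CPM, and for NRG1, from 0.682 ± 0.352 to 4.62 ± 1.28 CPM (SD, n = 5 and 6; exact permutation test, adjusted p 0.00812 for each). The test was not passed by HBEGF (0.34 ± 0.0444 and 0.43 ± 0.233 CPM, adjusted p 0.626 by the exact permutation test) or EGFR (1.72 ± 0.991 and 2.56 ± 0.435 CPM, adjusted p 0.0999). For EGFR, DMSO siNT 2-2V was at 3.44 CPM and the other 4 DMSO libraries at 1.05 to 1.66 CPM, below every 4OHT siNT library (1.91 to 3.07 CPM). Without 2-2V the log2 ratio was 0.995 in place of 0.58 (exact permutation test, unadjusted p 0.00952), and within VM libraries it was 0.91 (unadjusted p 0.0238 by the exact permutation test). That library also had the highest repeat share, 1.93%, against 1.35 to 1.60% in the other DMSO libraries.

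With the knockdown the intronic counts of the ligands parted. AREG was lower in every siSMARCA4 library, at 0.543 to 1.26 CPM, than in any siNT library, at 1.27 to 2.28 CPM (means 0.824 ± 0.286 and 1.73 ± 0.489, n = 6 each; exact permutation test, adjusted p 0.00812). NRG1 was higher in every siSMARCA4 library, at 6.98 to 19.2 CPM against 2.88 to 5.99 CPM (12.9 ± 5.29 and 4.62 ± 1.28, n = 6 each; exact permutation test, adjusted p 0.00812). HBEGF, whose transcript rose, had fewer intronic counts, at 0.215 ± 0.103 against 0.43 ± 0.233 CPM (72 and 130 counts in all; exact permutation test, adjusted p 0.026). Of the 130 siNT counts 47 came from 4-3VM, at 0.89 CPM against 0.231 to 0.40 CPM in the other 5 libraries, and without it the log2 ratio was -0.65 in place of -0.997 (exact permutation test, unadjusted p 0.0346). EGFR was at 3.58 ± 0.927 against 2.56 ± 0.435 CPM (exact permutation test, adjusted p 0.0253), which did not hold within VM libraries (exact permutation test, p 0.167), and EREG was at 1.08 ± 0.514 against 1.17 ± 0.164 CPM (exact permutation test, adjusted p 0.723).

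As background, 9511 coding genes had at least 100 counts on intronic repeats, and their median log2 ratio with the knockdown was 0.34, while the repeat share of a whole library was 1.39 to 1.52% in 4OHT siNT and 1.52 to 1.84% in 4OHT siSMARCA4. Of these genes, 8.87% were higher and 0.81% lower without overlap between libraries. The log2 ratio was 1.48 for NRG1, above 98.2% of the genes, and -1.07 for AREG, above 1.13% of them. It was -0.997 for HBEGF, above 1.43%, where the value of -0.65 without 4OHT siNT 4-3VM lay near the 5th percentile of these genes, -0.60. It was 0.48 for EGFR, above 61.5%, and -0.12 for EREG, above 19.3%. Within VM libraries the ratio of NRG1 was 0.82, since its 3 VM siSMARCA4 libraries were at 6.98 to 9.39 CPM and its 3 V libraries at 16.5 to 19.2 CPM. The part of the tag, or of the SMARCA4 transcript left, in this difference was not tested.

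**Figure D5:**
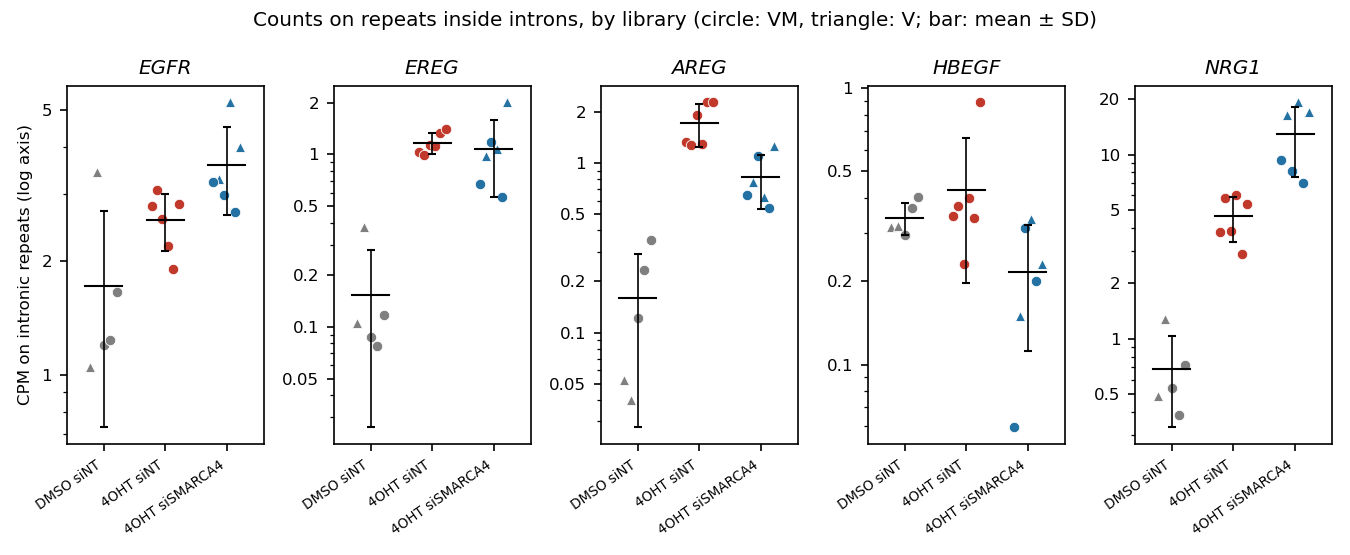
Counts on repeats inside the introns of the 5 tested genes in each library, as CPM on a log axis that differs between panels, with triangles for V and circles for VM libraries, and a bar for the mean ± SD of each group (5 libraries of DMSO siNT and 6 of either 4OHT group). In AREG the siSMARCA4 libraries (up to 1.26 CPM) lie below all siNT libraries, and in NRG1 they lie above them (from 6.98 CPM).

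The other genes of the pathway were a list of 41, of which 36 were tested. With 4OHT, 21 of the 36 rose and 6 fell, with a median log2 fold change of 0.43 against 0.00 over all genes, of which 27.0% rose and 27.4% fell. ERBB2, the co-receptor of the family, was at 93.6 ± 6.54 CPM in DMSO siNT and 30.7 ± 4.49 CPM in 4OHT siNT, and fell by 1.61 on the log2 scale (SE 0.13). ERBB3 and ERBB4, the receptors of NRG1, had 86 and 38 counts over all 17 libraries and were not tested. EGF, a further ligand of EGFR, fell by 2.35 on the log2 scale, from 2.70 ± 1.21 to 0.53 ± 0.0991 CPM. NRG2, NRG3 and NRG4 were too low to be tested.

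Of 7 genes for processing of the ligand precursors, 5 rose and 1 fell with 4OHT (27.0% and 27.4% of all genes, here and for the roles that follow). The inactive rhomboids RHBDF1 and RHBDF2, which escort ADAM17, rose by 1.68 (SE 0.15) and 1.46 (SE 0.28, less in the libraries numbered 2 by 1.45, edgeR adjusted p 0.0462), and the tetraspanin CD9 by 1.30 (SE 0.14). ADAM17 itself was at 0.15 (edgeR adjusted p 0.183), and ADAM10 fell by 0.41. Among 8 inhibitors and turnover genes 4 rose and 1 fell, led by ERRFI1, a feedback inhibitor of EGFR, at 1.76 (SE 0.10), the ubiquitin ligase CBLB at 1.19 (SE 0.15) and LRIG3 at -1.63 (SE 0.21). Of 7 adapters 3 rose (SHC1, PLCG1 and GRB2, by 0.44 to 0.63) and GAB1 fell by 0.68.

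Of 12 feedback and target genes of ERK, 9 rose and 1 fell with 4OHT, against 27.0% and 27.4% of all genes. The phosphatases DUSP4 and DUSP6 rose by 3.80 (SE 0.27) and 2.12 (SE 0.15), the inhibitor SPRY4 by 1.89 (SE 0.15) and the transcription factor ETV4 by 1.71 (SE 0.12), whereas FOSL1, an AP-1 subunit, fell by 0.75. The RAS transgene lies in the same cascade, so its output and that of the receptor cannot be told apart here.

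With the knockdown 1 of the 36 rose and 8 fell, against 10.4% and 13.8% of all genes, with a median of -0.17 against -0.02 over all genes. The 9 calls became 15 within VM libraries, 14 with the tag as covariate and 3 with the libraries numbered 4 only. The ERK targets DUSP4, SPRY4, ETV4 and SPRED2 fell by 1.65 (SE 0.23), 0.77 (SE 0.14), 0.67 (SE 0.11) and 0.35 (SE 0.09), and none of the 12 rose. DUSP4 was at 75.0 ± 15.5 CPM in 4OHT siNT and 23.9 ± 10.2 CPM in 4OHT siSMARCA4, still above the 5.38 ± 0.856 CPM of DMSO siNT. Its fall was larger with siSMARCA4_2 than with siSMARCA4_4 by 1.48 (SE 0.30, edgeR adjusted p 0.0303), the 1 gene of the 36 called in that term. RHBDF1 fell by 0.56, the protease FURIN by 0.35 and CBLB by 0.53. FURIN and CBLB were not called with either number alone (edgeR adjusted p 0.0507 and 0.0537 with number 2, 0.11 and 0.102 with number 4), nor RHBDF1 with number 4 only (0.0946). EGF fell by 0.69 (edgeR adjusted p 0.0454), a call lost in 21 of 30 alternatives. It was lost with DESeq2 (adjusted p 0.0576), limma-voom (0.125), no filter on low counts (edgeR, 0.121) and the tag as covariate (edgeR, 0.155), within VM libraries (-0.45, edgeR adjusted p 0.311), and on leaving out any of the 6 libraries of 4OHT siNT, DMSO siNT 2-1V or 2-2V, or any siSMARCA4 library except 2-1VM (edgeR adjusted p 0.0502 to 0.0958). The exchange factor SOS2 rose by 0.27 (edgeR adjusted p 0.0316), a call lost without 4OHT siNT 2-2VM, 4-1VM or 4-2VM, or without siSMARCA4 2-1VM, 4-2VM or 4-3V (0.0521 to 0.0769), and with the tag as covariate (0.24, edgeR adjusted p 0.0768). Against DMSO siNT, 22 of the 36 were higher and 6 lower in 4OHT siSMARCA4, where 26.5% and 28.6% of all genes were.

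The genes whose levels followed each member most closely were taken as a description from 14193 coding genes tested, by Pearson's r of log2 CPM over all 17 libraries. These libraries share the 3 groups and their depth, so r mostly reflects the group means. They were MCTP1, CXCL8 and BMP2 for EREG (r 0.992 to 0.995), CYP1A1, HTR7 and CD82 for AREG (0.993 to 0.994), GFPT2, VEGFA and GK for NRG1 (0.992 to 0.995), TNIP3, STEAP1 and ORAI1 for HBEGF (0.904 to 0.92) and NCOA3 and KDM5B for EGFR (0.973 and 0.963). Over the 12 libraries of 4OHT alone the nearest were TMX1 for EREG (0.983), TCEA2 for AREG (0.927), CFLAR for NRG1 (0.988), UNC93B1 for HBEGF (0.98) and ZNF160 for EGFR (0.962), so TNIP3 for HBEGF and GFPT2 for NRG1 were among the nearest 3 in both sets.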

How the data were processed

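For each library the authors deposited expected counts that were not normalised, as whole numbers for genes and repeat loci. Per the study's methods and the submitters' processing notes, they sequenced poly(A)-selected, stranded libraries as 110-base read pairs, trimmed with Cutadapt 4.7, aligned to GRCh38 with HISAT2 2.2.1 and counted with TElocal in its multi-mapping mode, which shares ambiguous pairs between features by maximum likelihood, so reads of near-identical sequences are estimates. The methods name Ensembl release 100 genes. All 62700 gene identifiers of GENCODE 44 were found in the tables (62700 of 62754 rows), and symbols, positions and lengths came from it.

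Here repeat loci were summed by subfamily and joined to the genes. Low rows were removed by filterByExpr with group labels (at least 10 counts, total of at least 15), the rest were scaled by TMM and fitted with edgeR 4.0.16 in R 4.3.3 by quasi-likelihood, with 1 term per group and all 17 libraries, and Benjamini-Hochberg adjustment ran over all genes tested. A call is an adjusted p under 0.05. The 5 tested members had at least 90 counts in every library, so none passed the filter through 1 group alone. The fit was first tested on simulated data. Over the 3 comparisons it recovered 51 to 59% of 1.5-fold changes and 86 to 89% of 2-fold changes, with 10 to 12 false calls. Changes under 1.5-fold were not simulated. Only 200 genes above a limit on mean count were changed per comparison, and libraries were drawn independently, without tag or number. Far more genes were called in the real data, so these rates need not hold there. Intronic repeat counts were those of loci on either strand within a gene that touch no exon of any gene. They were divided by the same scaled library sizes and tested by exact permutation over libraries (SciPy). The ligand make-up used CPM per kb of the canonical transcript. The 8 members and all lists were chosen with earlier results of these data known. Named genes were the members, SMARCA4, per pathway role up to 4 called genes of largest change, coding genes within 500 kb of the chromosome 4 block and the 3 most correlated genes per member, of which 1 is not reported here. ADAM10, ADAM17 and FOSL1 were named after their values were seen. The alternatives were DESeq2 1.42.0, limma-voom (limma 3.58.1), other scalings and filters, covariates, subsets and each library left out.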

Additional observations from a re-analysis of the deposited data

Results flagged for a closer look

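Over 27 groups of 5 or 6 libraries, in which chance alone flags about 1 in 20, 3 single libraries stood apart from the rest of their group by Dixon's criterion. EGFR was at 395 CPM in 4OHT siNT 2-1VM, with the other 5 libraries of that group at 313 to 336 CPM. TGFA was at 0.104 CPM in DMSO siNT 2-2VM, which is 6 counts, and at 0.0773 CPM in 4OHT siSMARCA4 4-3V, which is 4 counts, so both rest on a few reads. Among the other genes of the pathway, 2 responded differently by the number in the labels, whose meaning is not given for siNT, in a test of the difference itself: DUSP4 under the knockdown, with -1.48 for number 2 against number 4 (SE 0.30, edgeR adjusted p 0.0303), and RHBDF2 with 4OHT, with -1.45 (SE 0.35, edgeR adjusted p 0.0462), which missed the threshold with the tag as covariate (-1.07, edgeR adjusted p 0.0781).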

How the results depend on the processing

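Members called were 4 or 5 of 5 for 4OHT siNT against DMSO siNT, 2 or 3 for the knockdown and 5 for 4OHT siSMARCA4 against DMSO siNT in each of 30 alternatives, including 17 with 1 library left out, which gave the same ranges. These counts ignore which genes were called and in which direction. For the knockdown, the 2 called within VM libraries were HBEGF, higher, and AREG, lower. The 2 called with number 2 only were NRG1, higher, and EGFR, lower. With the libraries numbered 4 only, EGFR under the knockdown was 0.12 in place of -0.15 (edgeR adjusted p 0.773), and with number 2 only it was -0.37 (0.0342). Without a filter on low counts, 1 member, NRG1, was called in the number term of the 4OHT effect (-0.91, edgeR adjusted p 4.54e-05) in place of 0. With number 2 only, the knockdown calls of EREG (0.18, edgeR adjusted p 0.254) and HBEGF (0.55, 0.0828) were lost, and with number 4 only that of NRG1 (0.40, 0.247) and, with 4OHT, that of HBEGF (0.40, 0.118). With the tag as covariate NRG1 under the knockdown was 0.39 (0.155) and HBEGF with 4OHT 0.48 (0.0556). With number 4 only, the knockdown calls of RHBDF1 (-0.50 in place of -0.56), FURIN (-0.31 and -0.35), CBLB (-0.53 in both), SPRED2 (-0.23 and -0.35), CXCL5 (0.99 and 1.06) and CXCL3 (0.62 and 0.76) and the 4OHT calls of PARM1 (0.50 and 1.52), MTHFD2L (0.62 and 1.06), GAB1 (-0.50 and -0.68) and GRB2 (0.28 and 0.44) were lost. The calls of FURIN (-0.32, edgeR adjusted p 0.0507), CBLB (-0.44, 0.0537), EGF (-0.63, 0.248) and SOS2 (0.21, 0.231) were also lost with number 2 only, and those of EGF (-0.68, 0.159) and SOS2 (0.41, 0.0716) with number 4 only, so none of these 4 was called with either number alone. The causes were not tested. The log2 ratio of EREG intronic counts with the knockdown ranged from -0.39 to 0.0147 on leaving out 1 library, and it was above 0 only without 4OHT siSMARCA4 4-2VM. That of HBEGF with 4OHT, 0.34, ranged from -0.0074 (without 4OHT siNT 4-3VM) to 0.47. Pathway genes called with the knockdown, 9, were 14 with the tag as covariate, 15 within VM libraries and 3 with number 4 only, and in the number term of the 4OHT effect, 1, they were 0 with the tag as covariate and 6 without a filter on low counts. Over all genes, that filter's absence called 791 in place of 207 in the knockdown number term and 2947 in place of 408 in that of 4OHT, where limma-voom called 748 and the edgeR fit with the tag as covariate 0 (4358 at an unadjusted p under 0.05). The knockdown called 1198 genes with number 4 only, in place of 4703. Replicate numbers gave no clear pairing of libraries. Same-numbered libraries of different groups had correlations of deviations from -0.45 to 0.531 (median 0.049), with 13 of 32 over 0.1. Those with different numbers had -0.526 to 0.606 (median -0.03), with 19 of 64 over 0.1. Both sets were wide, so libraries of different groups shared structure that the replicate numbers do not name. A fit with the replicate block called the same number of members, 5, 3 and 5, and changed 1 other call, that of EGF under the knockdown (edgeR adjusted p 0.0632). Depth limits TGFA, BTC and EPGN, for which 3 counts over a group came to about 0.01 CPM.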
